A study of Mus musculus with 83 samples.

Results

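The genes described here are 34 that encode enzymes, membrane proteins and regulators of the lysosome, given as a list of symbols and read from a table of RNA-seq counts of colon tissue, of which the proximal section was used. All 34 were found by symbol among the 37764 genes of the table, and all 34 passed the filter on low counts that left 18325 genes for testing. The mice were males of the strain C57BL/6J/Ukj, kept only to age and with no treatment named in the labels, and each was measured at 1 age. The groups of 3, 9 and 15 months held 16 mice each, that of 24 months held 17 and that of 28 months held 18. PolyA RNA libraries were made in 3 preparations, called library batches here, and each batch held 4 to 7 mice of every age. Every age was therefore compared between different mice, and the labels do not say which mice shared a litter or a cage.

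The lysosome is the acidic compartment in which cells take apart proteins, sugars, lipids and worn organelles that reach it by endocytosis, phagocytosis and autophagy. Its hydrolases work in chains, so that loss of a single one makes its substrate pile up, as in Tay-Sachs, Pompe, Fabry or Niemann-Pick disease. In the colon, macrophages of the lamina propria and the absorptive epithelium both hold many lysosomes, and the activity of acid beta-galactosidase, the product of Glb1, is widely used as a stain for senescent cells. The 34 genes comprised 11 proteases, 10 glycosidases, 2 sulfatases, 5 genes of lipid handling, 4 membrane proteins and 2 genes of regulation and lysosomal upkeep, Tfeb and Grn.

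The libraries held 23026370 to 75838290 read pairs assigned to genes, the median library 35495123. Markers of enterocytes (5 of 5), goblet cells (5 of 5) and smooth muscle (5 of 5) were all above 0 in the median mouse. The summed level of the 5 smooth muscle markers spread over 736 to 4440 CPM (counts scaled to a fixed normalized library size) in mice of 3 months and over 2190 to 4053 CPM in mice of 28 months, so that this level differed most widely among the youngest mice. One mouse stood apart for the lysosomal genes: mouse 16 of 15 months had the lowest value of its age for 24 of the 34 genes. Mouse 10 of 9 months had the highest value of its age for 19 of 34, and mouse 12 of 3 months for 13 of 34. Mouse 13 of 28 months had the lowest value of its age for 13 of 34. Calls that leaving out one of these mice took away or added are given with the results.

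Expressed per length of transcript, as TPM (counts divided by exon length and scaled to the same total in each mouse), the genes covered a wide span of levels in the median of all 83 mice. Psap, whose product is cut into the saposins that help hydrolases reach their lipids, led with a median of 1118 TPM, followed by the abundant membrane protein Lamp1 with 650.4 TPM. Ctss, the cathepsin of antigen-presenting cells, came next with 494 TPM, ahead of Ctsz with 291, Ctsb with 274 and Ctsd with 233 TPM. At the low end stood the glycosidases Idua with 13.7 and Manba with 11.9 TPM, the transcription factor Tfeb with 11.3 TPM and Ctsk, the collagen-cleaving cathepsin of osteoclasts, with 6.7 TPM. The spread between mice of the same age and batch was smallest for Lamp1, with an SD of 0.07 on the log2 CPM scale, and largest for Ctsk with 0.24. The median SD of the 34 genes was 0.12, against 0.20 over all genes tested. Together the 34 genes took a median of 0.519% of the normalized counts at 3 months, 0.522% at 9, 0.511% at 15, 0.519% at 24 and 0.524% at 28 months. The ranges of this share overlapped at all ages, and its lowest value, 0.397%, belonged to a mouse of 15 months.

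**Figure D1:**
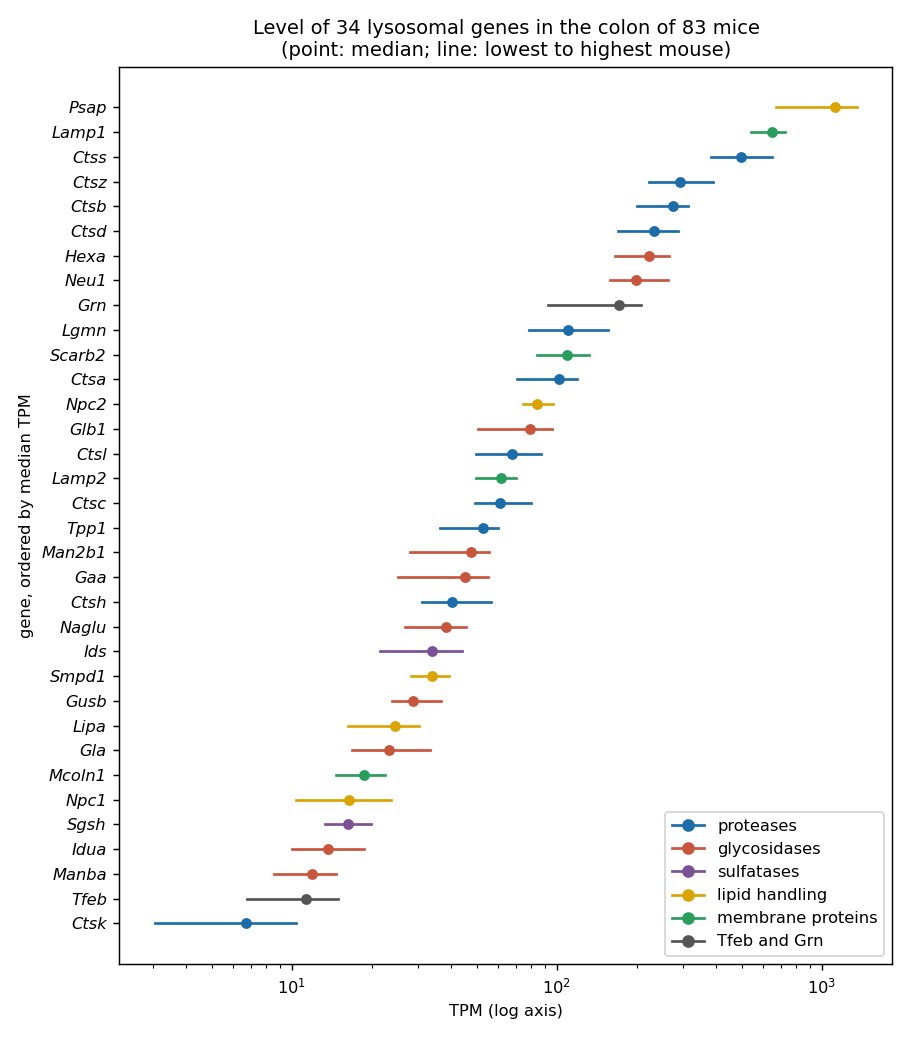
Median TPM of each of the 34 lysosomal genes over 83 mice (points) with the lowest and the highest mouse (lines), on a log axis and coloured by role. Psap stands at the top with 1118 TPM and Ctsk at the bottom with 6.70 TPM.

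The question put to these data was how the genes change over life, and whether they do so steadily or in steps. Neighbouring ages were compared, 3 with 28 months were compared, and a separate test asked whether the 5 age means depart from a straight line in age. All p-values are from edgeR's quasi-likelihood F-test with library batch as a term, adjusted by the Benjamini-Hochberg method over all 18325 genes, and a gene is said to have risen or fallen only where the adjusted p-value was below 0.1. Fold changes are on the log2 scale, the older minus the younger age, with their SE. The comparisons share mice (3 to 9 and 3 to 28 months use the same 3-month mice, for instance), so values from several comparisons are set side by side but are not independent of each other.

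Between 3 and 28 months 14 of the 34 genes changed, 6 upwards and 8 downwards. Of all genes tested, 23.5% were higher and 25.9% lower in this comparison, beside 17.6% higher and 23.5% lower among the lysosomal genes, shares that do not exceed the background. Among the 12643 genes at least as abundant as the least abundant of the 34, 52.5% were called. The sizes were small: the median absolute log2 fold change of the 34 genes was 0.06, against 0.14 over all genes tested and 0.11 over the genes of comparable abundance, and their median signed change was 0.01. The genes that rose were Ctsk, Ctsh, Npc1, Grn, Gaa and Scarb2, and those that fell were Ctsl, Neu1, Glb1, Hexa, Gla, Lamp2, Ctsa and Naglu. In bulk tissue fewer cells of a type and less RNA per cell cannot be told apart, and this holds for every change given here. For each of the 34 genes the range of the 28-month mice overlapped that of the 3-month mice.

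Leaving out 1 of 4 mice took away none of the 14 calls but added some. Without mouse 16 of 15 months Man2b1 was called at 0.05 (adjusted p = 0.0857) and Tpp1 at -0.06 (adjusted p = 0.0379). Without mouse 10 of 9 months Ctsd was called at 0.08 (adjusted p = 0.0398) and Npc2 at 0.06 (adjusted p = 0.0903). Ctsd was also called without mouse 12 of 3 months, and Npc2 without mouse 13 of 28 months, the library least like the others of its age.

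**Figure D2:**
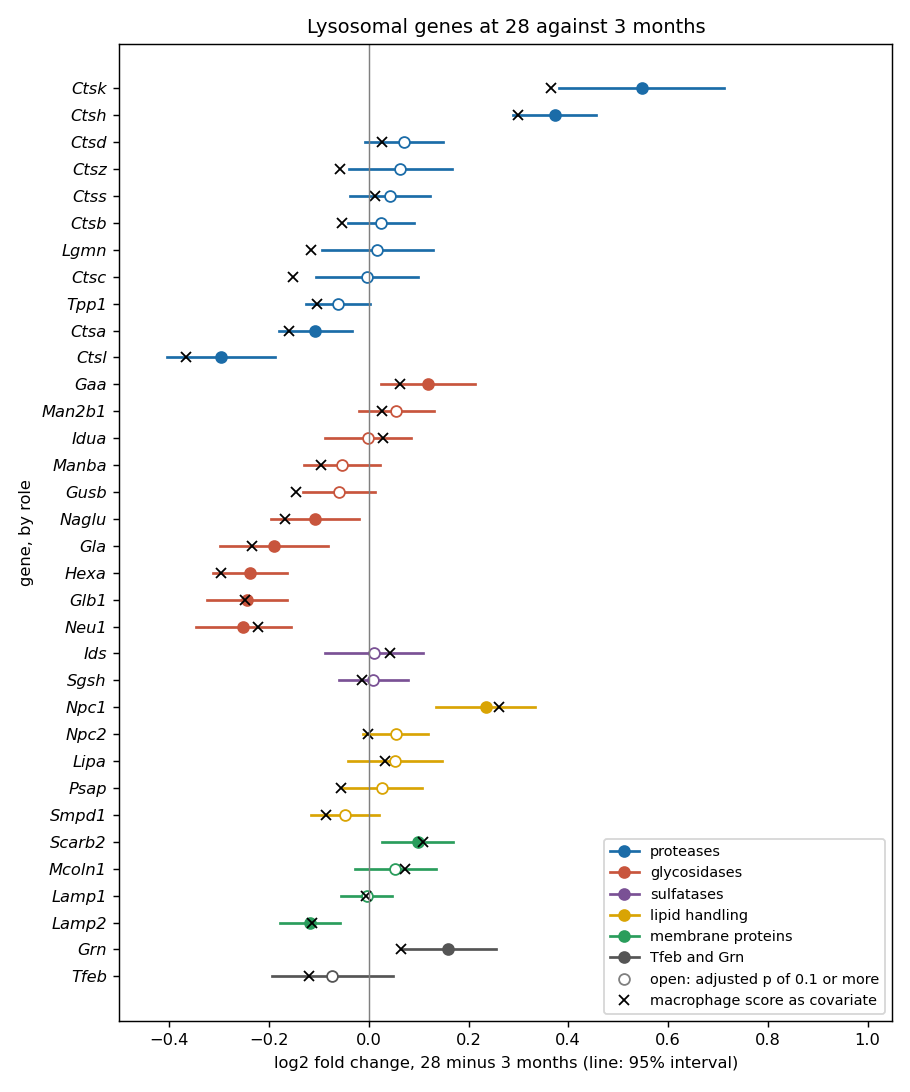
Log2 fold change between 3 and 28 months for the 34 genes, grouped by role, with 95% intervals (lines). Filled points are genes called at an adjusted p-value below 0.1, open points are not, and crosses give the value when a macrophage marker score is added to the model. Ctsk and Ctsh lie farthest to the right at 0.55 and 0.37, and 5 of the 10 glycosidases are filled points to the left of 0.

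Tfeb (chr17:47737030-47792419 on GRCm38, the build of all gene positions here) encodes the transcription factor that enters the nucleus when nutrients are short and switches on lysosomal and autophagy genes, and Mcoln1 (chr8:3500457-3515232) encodes a calcium channel of the lysosomal membrane that feeds into its activation. Tfeb measured 16 to 27.3 CPM at 3 months (median 21.8), 15.6 to 24.8 CPM at 9 months (median 21.2), 12.6 to 25 CPM at 15 months (median 21.2), 16.1 to 26.2 CPM at 24 months (median 20.7) and 17.6 to 25.2 CPM at 28 months (median 21.2). The ranges overlapped at all ages and the median moved by little. Between 3 and 28 months its log2 fold change was -0.07 ± 0.06 (SE, adjusted p = 0.347), with a 95% interval of -0.20 to 0.05. Mcoln1 measured 37.4 to 56.9 CPM at 3 months (median 47.5), 44.4 to 53 CPM at 9 months (median 47.1), 40.6 to 53.7 CPM at 15 months (median 46.1), 39.2 to 52.7 CPM at 24 months (median 46.1) and 41.4 to 56.9 CPM at 28 months (median 49). Again mice of every age covered nearly the same values. The log2 fold change was 0.05 ± 0.04 (SE, adjusted p = 0.302), with an interval of -0.03 to 0.13 and within-batch differences of 0.00, -0.04 and 0.22 in batches 1, 2 and 3. Neither gene was called in this comparison or in the other 5 tests. With a score of goblet cell markers in the model Tfeb was called as lower at 9 than at 3 months, at -0.15 (adjusted p = 0.0927), against -0.12 (adjusted p = 0.279) without it.

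TFEB binds an E-box within the CLEAR element, a palindrome found in many lysosomal promoters. The RefSeq promoter table (GRCm38.p6, 250 bases before to 50 after each start) held 36 promoters of 31 of the 34 genes, and Ctsb, Ctsh and Npc1 are named only. The letters CACGTG, which read the same on both strands, occurred in 11 of these 36 promoters (30.6%) and in 7.15% of all 32851 promoters of the table. The longer palindrome TCACGTGA, which contains the shorter motif, occurred in 4 of 36 (11.1%) and in 0.974% of all promoters. Of 9 promoters of genes that fell between 3 and 28 months 5 held CACGTG, as did 1 of 4 promoters of genes that rose and 5 of 23 of genes not called. The following stretches are shown so that the letters can be seen in genes that fell (Gla, Glb1, Ctsa, Naglu), rose (Gaa) and did neither (Lamp1, Mcoln1, Ctsd); they are written 5′ to 3′ on the strand of the gene, and capitals mark every CACGTG or TCACGTGA in a stretch. Where a stretch reaches into the annotated gene at most 30 bases are given.
Gla (chrX:134601154-134601239, minus strand): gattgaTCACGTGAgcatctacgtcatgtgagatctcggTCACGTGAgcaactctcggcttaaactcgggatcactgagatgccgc
Glb1 (chr9:114400990-114401075, plus strand): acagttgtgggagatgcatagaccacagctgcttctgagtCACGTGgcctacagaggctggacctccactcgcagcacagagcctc
Ctsa (chr2:164833749-164833772, plus strand): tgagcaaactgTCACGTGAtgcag
Naglu (chr11:101070009-101070038, plus strand): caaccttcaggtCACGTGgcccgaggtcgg
Gaa (chr11:119267783-119267868, plus strand): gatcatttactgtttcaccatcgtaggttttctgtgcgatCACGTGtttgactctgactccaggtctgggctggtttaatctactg
Lamp1 (chr8:13159093-13159160, plus strand): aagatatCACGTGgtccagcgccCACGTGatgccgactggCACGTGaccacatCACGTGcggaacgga
Mcoln1 (chr8:3500462-3500491, plus strand): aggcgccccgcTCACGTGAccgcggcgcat
Ctsd (chr7:142387908-142387937, minus strand): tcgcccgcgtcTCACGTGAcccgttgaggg
Gla held the longer palindrome at 2 places, 191 and 224 bases before its start, and Lamp1 held CACGTG at 4 places within 58 bases of its start. The presence of these letters is a description of the sequence and not of binding, and a promoter without them says nothing about the factor.

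Among the 11 proteases, 2 rose and 2 fell between 3 and 28 months, 18.2% in each direction against 23.5% higher and 25.9% lower over all genes. Ctsk (chr3:95499256-95509362) showed the largest change of the 34 genes in this comparison. Its levels were 1.59 to 3.87 CPM at 3 months (median 2.97), 2.34 to 3.87 CPM at 9 months (median 2.94), 2.49 to 4.27 CPM at 15 months (median 2.98), 2.71 to 4.39 CPM at 24 months (median 3.93) and 2.62 to 5.19 CPM at 28 months (median 4.01). The 3 younger ages looked alike, the 2 older ones were higher, and 10 of the 18 mice of 28 months exceeded the highest mouse of 3 months. On the log2 scale the change was 0.55 ± 0.08 (SE, adjusted p = 1.13e-07), a 1.46-fold rise, with within-batch differences of 0.37, 0.48 and 0.87 in batches 1 to 3. The largest of its 4 steps in value was that from 15 to 24 months, also the longest in time, where Ctsk rose by 0.33 ± 0.08 (SE, adjusted p = 0.00803). Departure from a straight line was not called for Ctsk, but was with a smooth muscle, fibroblast or plasma cell score in the model. From 3 to 9 months its change was 0.08 (adjusted p = 0.681), and from 24 to 28 months it was 0.14 (adjusted p = 0.299). With an endothelium score in the model the step from 15 to 24 months was 0.17 (adjusted p = 0.301). The last step was called with a smooth muscle score in the model, at 0.20 (adjusted p = 0.0381), and with a fibroblast score, at 0.22 (adjusted p = 0.0313).

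Ctsh (chr9:90054152-90076089), an aminopeptidase that trims peptides and processes surfactant proteins, rose with the lowest p-value of the group. It measured 47.3 to 63 CPM at 3 months (median 52.7), 52.2 to 74.2 CPM at 9 months (median 58.5), 51.1 to 66.6 CPM at 15 months (median 57.3), 48.8 to 70.04 CPM at 24 months (median 67.1) and 52.8 to 81.5 CPM at 28 months (median 67.6). All 18 of the oldest mice lay above the median of 3 months and 16 above its highest mouse. In the model the log2 fold change was 0.37 ± 0.04 (SE, adjusted p = 1.15e-11), which is 1.29-fold, and the batches gave 0.28, 0.32 and 0.52. Unlike Ctsk, Ctsh rose in an early step as well, by 0.17 ± 0.04 (SE, adjusted p = 0.00956) between 3 and 9 months, followed by a change of -0.04 from 9 to 15 months that did not pass the test. A further rise of 0.16 ± 0.04 (SE, adjusted p = 0.012) separated 15 from 24 months. Departure from a straight line was not called for Ctsh, but was with a macrophage, enterocyte or B cell score in the model. Whether the steps of the 2 genes differ was not tested.

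Ctsl (chr13:64359337-64370890), a broad endopeptidase, went the other way and showed the largest fall of the 34 genes. Its levels were 135 to 189 CPM at 3 months (median 151), 124 to 194 CPM at 9 months (median 155), 121 to 171 CPM at 15 months (median 142), 109.6 to 157 CPM at 24 months (median 138) and 102 to 165 CPM at 28 months (median 124). All 18 mice of 28 months but 1 lay below the 3-month median, and 13 lay below the lowest 3-month mouse. The log2 fold change was -0.30 ± 0.05 (SE, adjusted p = 7.86e-06), to 0.814 of the younger level, and the fall was seen in each batch, with -0.40, -0.29 and -0.20. No single step passed the test, the steps being 0.01, -0.12, -0.05 and -0.13 in order of age. Ctsa, the carboxypeptidase known as protective protein, fell by less. It ranged over 109 to 201 CPM in all mice, with medians of 160.3, 164, 158, 152 and 153 CPM from the youngest to the oldest age. Its log2 fold change was -0.11 ± 0.04 (SE, adjusted p = 0.0142), and 14 of 18 oldest mice lay below the 3-month median.

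**Figure D3:**
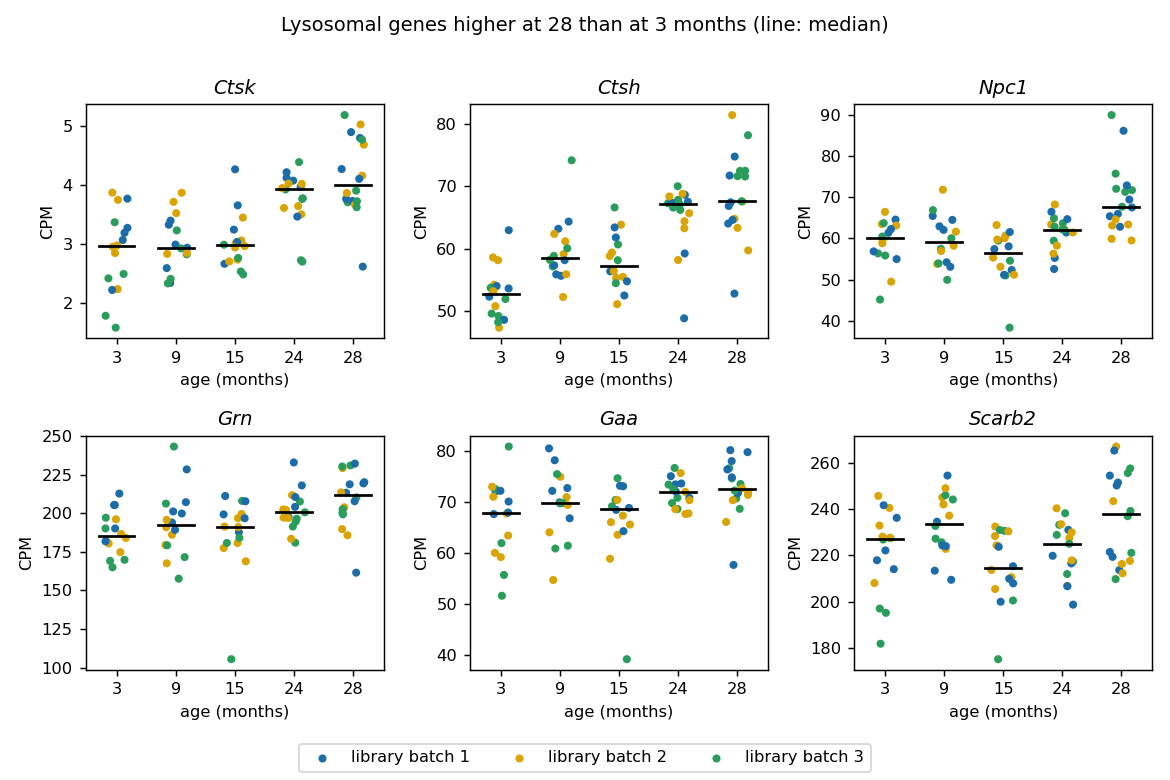
CPM of the 6 lysosomal genes that rose between 3 and 28 months, for each mouse by age (points, coloured by library batch; axes do not start at 0) with the median of each age (line). Ctsk and Ctsh stand higher from 24 months on, and the low green point at 15 months in Npc1, Grn, Gaa and Scarb2 is mouse 16.

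The other 3 proteases that changed did so in steps that did not add up to a difference between 3 and 28 months. Ctsz (chr2:174427493-174439039), a carboxypeptidase abundant in phagocytes, measured 103 to 154 CPM at 3 months (median 126), 118 to 207 CPM at 9 months (median 142), 121 to 159 CPM at 15 months (median 142), 131 to 169.9 CPM at 24 months (median 139) and 109.5 to 157 CPM at 28 months (median 125). The middle ages stood above both ends, and 15 of 16 mice of 9 months exceeded the 3-month median. Ctsz rose by 0.19 ± 0.05 (SE, adjusted p = 0.0243) between 3 and 9 months. At 28 months its difference from 3 months was 0.06 (adjusted p = 0.328), and the departure from a straight line had an adjusted p of 0.0142.

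Ctss (chr3:95526786-95556403), which cleaves the invariant chain of MHC class II, had the opposite shape. It measured 195 to 286 CPM at 3 months (median 228), 195 to 248 CPM at 9 months (median 213), 194 to 239.6 CPM at 15 months (median 209), 196 to 263 CPM at 24 months (median 231) and 202 to 282 CPM at 28 months (median 236). Mice of 9 and 15 months were the lowest, and those of 28 months reached the level of 3 months. Ctss fell by 0.11 ± 0.04 on the log2 scale (SE, adjusted p = 0.0969) between 3 and 9 months, a call that 10 of 21 alternative analyses did not make, leaving out mouse 12 of 3 months among them, which gave -0.10 (adjusted p = 0.146). It rose by 0.12 ± 0.04 (SE, adjusted p = 0.0484) between 15 and 24 months, when 15 of 17 mice lay above the 15-month median. The departure from a straight line had an adjusted p of 0.00278. The annotated span of Ctss overlaps that of the pseudogene Hmgb1-ps5 on the same strand, so that reads of any shared stretch are uncertain. Overlap of their exons was not examined.

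Lgmn (chr12:102394084-102439813), the asparaginyl endopeptidase legumain that activates other cathepsins, measured 77.4 to 122 CPM at 3 months (median 86.9), 69.97 to 110.4 CPM at 9 months (median 84.4), 59.8 to 91 CPM at 15 months (median 77), 75.9 to 113 CPM at 24 months (median 85) and 74.3 to 118 CPM at 28 months (median 85.9). It was lowest at 15 months. Its rise between 15 and 24 months was 0.16 ± 0.06 (SE, adjusted p = 0.0722), which became 0.13 (adjusted p = 0.12) without mouse 16 of 15 months. Of 21 alternative analyses 6 did not make this call, the fit without a filter on low counts and that with the fibroblast score, at 0.14 (adjusted p = 0.126), among them. The departure from a straight line had an adjusted p of 0.0169, and 9 of 18 mice of 28 months lay on each side of the 3-month median. Ctsb, Ctsc, Ctsd and Tpp1 were called in none of the 6 tests. Their log2 fold changes between 3 and 28 months were 0.02, 0.00, 0.07 and -0.06, with adjusted p-values of 0.571, 0.969, 0.136 and 0.11. Ctsd, the main aspartic protease of the lysosome, overlaps the gene model Gm49369 on its strand.

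**Figure D4:**
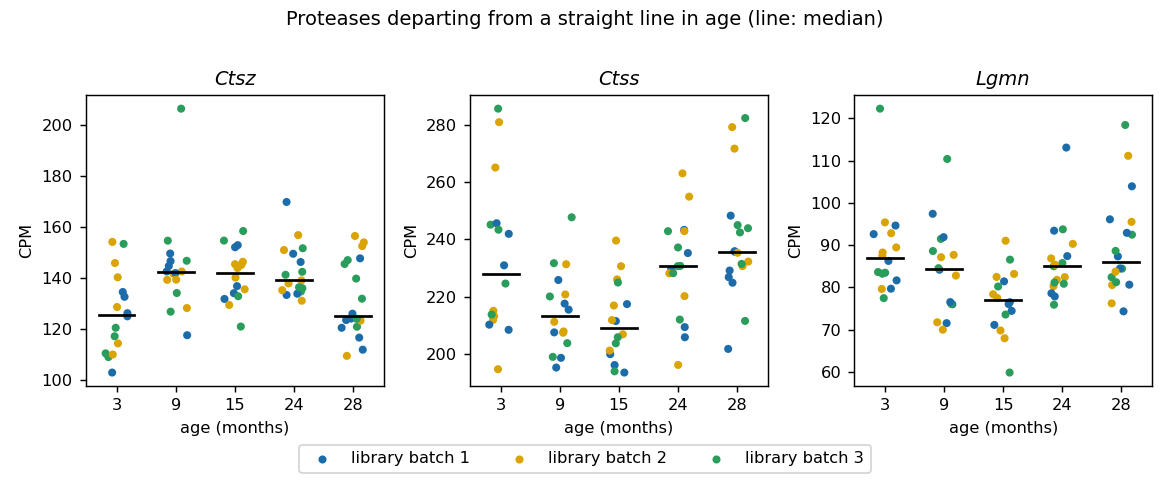
CPM of the 3 proteases that departed from a straight line in age, for each mouse by age (points, coloured by library batch; axes do not start at 0) with the median of each age (line). Ctsz is highest in midlife, at a median of 142 CPM at 9 months, while Ctss and Lgmn are lowest at 15 months with medians of 209 and 77.0 CPM.

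Of the 10 glycosidases, the enzymes that release sugars one by one from glycolipids, glycoproteins and glycosaminoglycans, 5 fell and 1 rose between 3 and 28 months. Of all genes tested 49.4% were called in this comparison, in either direction, and 52.5% of those of comparable abundance, beside 6 of 10 here. The median log2 fold change of the 10 was -0.08, against -0.01 over all genes tested. Neu1 (chr17:34931253-34935953), the sialidase that removes terminal sialic acids, measured 229 to 329 CPM at 3 months (median 271), 209 to 312 CPM at 9 months (median 256), 205 to 277 CPM at 15 months (median 233), 198 to 251 CPM at 24 months (median 224) and 195 to 286 CPM at 28 months (median 220.1). The median was lower at each age than at the one before, and 10 of the 18 oldest mice lay below the lowest mouse of 3 months. The log2 change was -0.25 ± 0.05 (SE, adjusted p = 1.3e-05). Within batches it was -0.33, -0.30 and -0.11, smallest in batch 3. Glb1 (chr9:114401076-114474898), acid beta-galactosidase, measured 76.5 to 95.1 CPM at 3 months (median 87.2), 73.5 to 101 CPM at 9 months (median 81.6), 49.6 to 83.4 CPM at 15 months (median 79.5), 64.7 to 83.4 CPM at 24 months (median 76.4) and 64.2 to 79.5 CPM at 28 months (median 72.8). None of the 18 mice of 28 months reached the 3-month median, and 15 lay below the lowest mouse of 3 months. Its log2 fold change was -0.24 ± 0.04 (SE, adjusted p = 7.54e-07), to 0.845 of the younger level, with -0.29, -0.22 and -0.21 in the 3 batches. The annotated span of Glb1 overlaps that of Tmppe on the same strand, so that reads of any shared stretch are uncertain. Overlap of their exons was not examined.

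Neu1, Glb1 and Ctsa are known to form a single multienzyme complex in the lysosome, in which the carboxypeptidase protects both glycosidases. All 3 were lower at 28 than at 3 months, with log2 fold changes of -0.25, -0.24 and -0.11. For each the largest step down in value was that from 9 to 15 months, with -0.14, -0.15 and -0.09. None of these steps passed the test at this threshold, with adjusted p-values of 0.26, 0.126 and 0.438. DESeq2 called the step of Glb1. Without mouse 16 of 15 months the 3 steps were -0.15, -0.11 and -0.06.

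Hexa (chr9:59539540-59565109) encodes a ganglioside-degrading hexosaminidase subunit whose loss causes Tay-Sachs disease. It measured 139 to 174 CPM at 3 months (median 149), 133 to 196 CPM at 9 months (median 153), 133 to 168 CPM at 15 months (median 149.5), 119 to 156 CPM at 24 months (median 143) and 103 to 154 CPM at 28 months (median 129.7). Up to 15 months the medians stayed close together, and at 28 months 16 of 18 mice lay below the lowest mouse of 3 months. Between 3 and 28 months Hexa fell by 0.24 ± 0.04 on the log2 scale (SE, adjusted p = 2.04e-07), with -0.31, -0.19 and -0.19 in the batches. The step from 24 to 28 months, -0.16 ± 0.04 (SE, adjusted p = 0.00257), was the largest of its 4 steps, and the departure from a straight line had an adjusted p of 0.00824. Gm2a, the activator protein that presents the ganglioside to the same enzyme, was higher by 0.29 ± 0.08 (SE, adjusted p = 0.00323).

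Gla (chrX:134588149-134601125), the alpha-galactosidase that is missing in Fabry disease, had a course like that of Hexa. It measured 19.4 to 36.3 CPM at 3 months (median 25), 20.9 to 30.4 CPM at 9 months (median 26.5), 24.8 to 31.9 CPM at 15 months (median 26.7), 19.6 to 31.7 CPM at 24 months (median 26.5) and 17.7 to 29.9 CPM at 28 months (median 22.4). Medians were alike from 3 to 24 months and lower at 28 months, when 17 of 18 mice lay below the 3-month median but only 2 below its lowest mouse. The log2 fold change was -0.19 ± 0.05 (SE, adjusted p = 0.00348) between 3 and 28 months, and -0.17 ± 0.05 (SE, adjusted p = 0.0366) between 24 and 28 months. In that last step it was -0.12 (adjusted p = 0.325) with a goblet cell, -0.17 (adjusted p = 0.252) with a tuft cell and -0.15 (adjusted p = 0.156) with a plasma cell score. The departure from a straight line had an adjusted p of 0.0421. Naglu, which acts on heparan sulfate, fell by 0.11 ± 0.04 on the log2 scale (SE, adjusted p = 0.0437), with a range of 23.3 to 41 CPM over all mice and 15 of 18 oldest mice below the 3-month median.

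Gaa (chr11:119267887-119285454), the acid alpha-glucosidase that digests glycogen and is lost in Pompe disease, was the glycosidase that rose. It measured 51.7 to 81 CPM at 3 months (median 67.9), 54.8 to 80.6 CPM at 9 months (median 69.95), 39.3 to 74.8 CPM at 15 months (median 68.7), 67.7 to 76.8 CPM at 24 months (median 72.1) and 57.8 to 80.3 CPM at 28 months (median 72.6). The mice of 24 months were close together and high, but no mouse of 28 months exceeded the highest of 3 months. On the log2 scale the change was 0.12 ± 0.05 (SE, adjusted p = 0.0377), with 0.08, 0.10 and 0.19 in the batches. With a score of macrophage markers in the model it was 0.06 (adjusted p = 0.32) and with one of endothelial markers 0.00 (adjusted p = 0.945). With a score of smooth muscle markers it was 0.07 (adjusted p = 0.152). Gusb, Idua, Man2b1 and Manba were called in none of the 6 tests. Their log2 fold changes between 3 and 28 months were -0.06, 0.00, 0.06 and -0.05, with intervals of -0.13 to 0.01, -0.09 to 0.08, -0.02 to 0.13 and -0.13 to 0.02. The annotated span of Manba overlaps that of the gene model Gm16100 on the same strand. The sulfatases Ids and Sgsh, which desulfate heparan sulfate, were at 0.01 (-0.09 to 0.11) and 0.01 (-0.06 to 0.08).

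**Figure D5:**
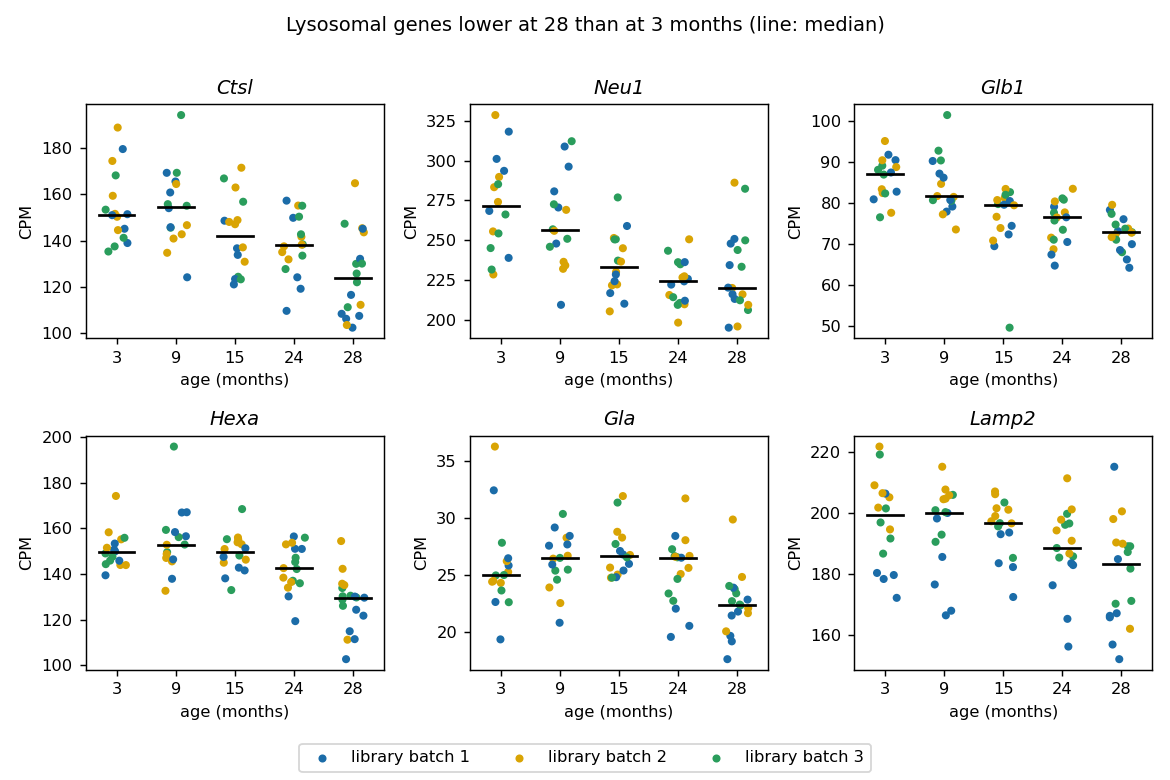
CPM of 6 of the 8 lysosomal genes that fell between 3 and 28 months, for each mouse by age (points, coloured by library batch; axes do not start at 0) with the median of each age (line). Neu1 and Glb1 have lower medians from 15 months on, whereas Hexa and Gla are lowest at 28 months with medians of 129.7 and 22.4 CPM.

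Among the 5 genes of lipid handling, Npc1 changed. Its product carries cholesterol out through the lysosomal membrane after taking it over from the soluble protein encoded by Npc2. Npc1 measured 45.2 to 66.4 CPM at 3 months (median 60.1), 49.98 to 71.8 CPM at 9 months (median 59.1), 38.4 to 63.3 CPM at 15 months (median 56.4), 52.6 to 68.2 CPM at 24 months (median 62.2) and 59.5 to 89.9 CPM at 28 months (median 67.6). It was lowest at 15 months, and 10 of the 18 oldest mice exceeded the highest mouse of 3 months. The log2 fold change between 3 and 28 months was 0.23 ± 0.05 (SE, adjusted p = 8.88e-05), and the batches gave 0.22, 0.05 and 0.41, so that batch 2 showed little of it. Npc1 was the only one of the 34 genes called in 4 of the 6 tests. It rose by 0.15 ± 0.05 (SE, adjusted p = 0.0519) between 15 and 24 months, or 0.12 (adjusted p = 0.104) without mouse 16 of 15 months. It rose again by 0.17 ± 0.05 (SE, adjusted p = 0.0196) between 24 and 28 months, with 0.22, 0.01 and 0.25 in the batches. The departure from a straight line had an adjusted p of 0.00353.

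Npc2 was at a log2 fold change of 0.05 between 3 and 28 months, with an interval of -0.01 to 0.12. Lipa, the acid lipase that frees cholesterol from its esters, was at 0.05 (-0.04 to 0.15). Smpd1, acid sphingomyelinase, was at -0.05 (-0.12 to 0.02) and Psap at 0.03 (-0.05 to 0.11). These 4 were called in none of the tests. A test of the difference between Npc1 and Npc2 was not made.

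The membrane proteins also split. Scarb2 (chr5:92441314-92506833), whose product LIMP-2 brings beta-glucocerebrosidase to the lysosome, measured 182 to 246 CPM at 3 months (median 227), 209 to 255 CPM at 9 months (median 234), 175 to 232 CPM at 15 months (median 215), 199 to 240.3 CPM at 24 months (median 225) and 209.8 to 267 CPM at 28 months (median 238). The course was uneven, lowest at 15 and highest at 28 months, and 7 of 18 oldest mice exceeded the highest of 3 months. In the model the log2 fold change was 0.10 ± 0.04 (SE, adjusted p = 0.0211), with 0.08, 0.00 and 0.20 in the batches and thus no difference in batch 2. Its departure from a straight line had an adjusted p of 0.0128. Lamp2 (chrX:38401357-38456454), which is needed for the fusion of autophagosomes and for chaperone-mediated autophagy, measured 172 to 222 CPM at 3 months (median 199), 166 to 215 CPM at 9 months (median 200.1), 172 to 207 CPM at 15 months (median 197), 156 to 211 CPM at 24 months (median 188) and 152 to 215 CPM at 28 months (median 183). Mice of the 2 oldest ages extended to lower values, and 8 of 18 mice of 28 months lay below the lowest mouse of 3 months. Lamp2 fell by 0.12 ± 0.03 on the log2 scale (SE, adjusted p = 0.000994), with -0.09, -0.14 and -0.13 in the batches. Its close relative Lamp1 had medians of 571, 589, 573, 569 and 569 CPM from 3 to 28 months and a log2 fold change of 0.00 ± 0.03 (SE, adjusted p = 0.906). The 95% interval of Lamp1, -0.06 to 0.05, did not include the value of Lamp2, but the difference between the 2 genes was not tested.

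Grn (chr11:102430315-102437048) encodes progranulin, a secreted protein that is cut into granulins in lysosomes and is needed for their upkeep. It measured 165 to 213 CPM at 3 months (median 185), 158 to 243 CPM at 9 months (median 193), 105 to 211 CPM at 15 months (median 191), 181 to 233 CPM at 24 months (median 201) and 162 to 232 CPM at 28 months (median 212). The medians at 24 and 28 months were the highest, and 17 of 18 oldest mice lay above the 3-month median. The log2 fold change was 0.16 ± 0.05 (SE, adjusted p = 0.0049), with 0.07, 0.15 and 0.25 in the batches. It was 0.06 (adjusted p = 0.245) with a macrophage score and 0.05 (adjusted p = 0.405) with an endothelium score in the model.

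Taken step by step, few of the 34 genes passed the test between neighbouring ages. Between 3 and 9 months Ctsz and Ctsh rose and Ctss fell, which is 5.88% of the 34 genes upwards and 2.94% downwards, against 3.64% and 5.05% of all genes tested. Between 9 and 15 months edgeR called 0 of 34, where 0.431% of all genes were called in either direction. The unadjusted p-value was below 0.05 for 7 genes in that step (20.6%, against 9.18% of all genes), and all 7 had lower values at 15 months: Ctsa, Ctsl, Lgmn, Glb1, Neu1, Npc1 and Scarb2. DESeq2 called 2 of them, Glb1 and Scarb2, which is 5.88% of the 34 against 0.756% of all genes. Mouse 16, the lowest of its age for 24 of the 34 genes, is among the 15-month mice, and without it edgeR also called 0. The unadjusted p-value was then below 0.05 for 4 genes (11.8%, against 11.2% of all genes), Glb1, Neu1 and Scarb2 with lower and Man2b1 with higher values at 15 months.

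Between 15 and 24 months 5 genes rose and 0 fell: Ctsk, Ctsh, Lgmn, Npc1 and Ctss. This is 14.7% upwards, against 6.28% of all genes upwards and 7.24% downwards. At an unadjusted p below 0.05 there were 8 genes (23.5%, against 24.2% of all genes), Gaa, Psap and Grn beside these 5, each with a higher value at 24 months. DESeq2 called 7 upwards and 0 downwards, against 7.37% and 7.23% of all genes. Without mouse 16 of 15 months 3 of the 5 remained, Ctsk at 0.32, Ctsh at 0.17 and Ctss at 0.11. These are 8.82% of the 34, against 6.52% of all genes called upwards in that fit. The genes at an unadjusted p below 0.05 were then 6 (17.6%, against 25.3% of all genes), with Gaa, Psap and Grn no longer among them and Hexa added with a lower value at 24 months. Without mouse 10 of 9 months Grn and Psap were called as higher too, and without mouse 13 of 28 months Grn was. With a score of endothelial markers in the model edgeR called 0 of the 34 genes in this step, against 6.76% of all genes, and 4 had an unadjusted p below 0.05 (11.8%, against 19.5%). Of the 5 genes that rose, 4 were proteases. Between 24 and 28 months Npc1 rose while Hexa and Gla fell, which is 2.94% upwards and 5.88% downwards, against 5.66% and 6.01% of all genes. Without mouse 13 of 28 months Ctsl and Lamp2 were called as lower too. Without mouse 16 of 15 months Scarb2 was called as higher and Tpp1 as lower in addition, and without mouse 10 of 9 months Scarb2 was. With a score of tuft cell markers in the model edgeR called 0 of the 34 in this step, against 0.42% of all genes, while the fold change was -0.17 (adjusted p = 0.252) for Gla and 0.15 (adjusted p = 0.294) for Npc1. An unadjusted p below 0.05 was then found for 8 genes (23.5%, against 11.5% of all genes), 6 with higher and 2 with lower values, and without the score for 7 (20.6%, against 22.02% of all genes), 2 with higher and 5 with lower values.

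Departure from a straight line was called for 7 of the 34 genes, or 20.6%, against 16.2% of all genes tested. They were Ctsz, Ctss, Lgmn, Hexa, Gla, Npc1 and Scarb2. With the goblet cell score in the model 10 were called but only 4 of these 7, without Ctsz, Gla and Hexa and with Ctsb, Grn, Gusb, Man2b1, Manba and Psap added. The 10 are 29.4% of the 34, against 11.3% of all genes in that fit. With the tuft cell score 4 were called, Ctss, Lgmn, Npc1 and Psap, and with the plasma cell score 3, Ctss, Lgmn and Ctsk. These are 11.8% and 8.82%, against 9.3% and 6.04% of all genes. The courses of the 7 genes named first were of 3 kinds by their medians: Ctsz was highest in midlife, Ctss, Lgmn, Npc1 and Scarb2 were lowest at 15 months, and Hexa and Gla were lowest at 28 months. Of the 34 genes, 17 were called in none of the 6 tests.

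Macrophages, which are rich in lysosomes, are one cell type whose RNA moved with age in the same tissue. Of 7 macrophage markers 6 (Csf1r, C1qa, C1qb, C1qc, Mrc1 and Cd163) were higher at 28 than at 3 months and Adgre1 was not called. None of the 7 was at 0, and their summed level was 161 to 249.6 CPM at 3 months and 156 to 371 CPM at 28 months. The mean score of the markers, on the log2 scale, was 4.54 at 3 months, 4.56 at 9, 4.62 at 15, 4.84 at 24 and 4.86 at 28 months. With this score in the model, 27 of the 34 log2 fold changes between 3 and 28 months were lower than without it, with a median shift of -0.04.

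With the macrophage score 4 genes were still called as higher (Ctsk, Ctsh, Npc1 and Scarb2) and 14 as lower. Both directions together these are 52.9% of the lysosomal genes, against 49.4% of all genes in that fit (22.3% higher, 27.1% lower). Ctsk was then at 0.37 (adjusted p = 3.43e-05), Ctsh at 0.30 (adjusted p = 5.51e-09) and Npc1 at 0.26 (adjusted p = 6e-05). Grn was at 0.06 (adjusted p = 0.245) and Gaa at 0.06 (adjusted p = 0.32), both no longer called. The 8 genes that fell were still called, with Hexa at -0.30 (adjusted p = 6.6e-10), Glb1 at -0.25 (adjusted p = 3.38e-06) and Neu1 at -0.22 (adjusted p = 0.000309). Ctsc, Gusb, Lgmn, Manba, Smpd1 and Tpp1 joined those called as lower. The sign changed for 7 genes that were not called without the score, among them Lgmn, which went from 0.02 to -0.12, Ctsz from 0.06 to -0.06, Psap from 0.03 to -0.05 and Ctsb from 0.02 to -0.05. Between 15 and 24 months the rise of Ctss became 0.10 (adjusted p = 0.111) and that of Lgmn 0.07 (adjusted p = 0.358), while Hexa was called as lower at -0.10 (adjusted p = 0.0658). The score itself moved with age, and the part of macrophages in the changes without it was not tested further.

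Scores of other cells were treated in the same way. The enterocyte score, from 5 markers of which Car4 was lower at 28 months, had means of 9.22 at 3 and 9.12 at 28 months, and with it in the model the same 14 genes were called between 3 and 28 months. The B cell score was 2.38 at 3 and 1.79 at 28 months, with 3 of 4 markers lower, and the same 14 genes were called with it as well. The fibroblast score was 6.87 at 3 and 6.88 at 28 months, with Dcn higher and Col1a1 and Col3a1 lower among its 5 markers, and with it Gusb and Tpp1 were called in addition to the 14. The smooth muscle score was 8.92 at 3, 9.47 at 24 and 9.26 at 28 months, with 0 of its 5 markers called by edgeR between 3 and 28 months and 0 at an unadjusted p below 0.05, and with it Gaa was lost and Tpp1 added. Scores of 8 further lists were not put into a model. Among these, Neurod1 and Pyy of enteroendocrine cells, Lgr5 of stem cells and Ret of enteric neurons were lower at 28 months. Cpa3 of mast cells, Axin2 of stem cells and Cidec of adipocytes were higher.

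Plasma cell markers were highest in midlife, with a score of 3.6 at 3, 3.84 at 9, 4.27 at 15, 4.13 at 24 and 3.63 at 28 months. Between 24 and 28 months 3 of 4 (Mzb1, Tnfrsf17 and Derl3) fell, as did all 4 B cell markers, and all 4 plasma cell markers departed from a straight line. With the plasma cell score the same 14 genes were called between 3 and 28 months. Between 24 and 28 months 1 gene, Hexa, was called (2.94%, against 3.61% of all genes), with Npc1 at 0.14 (adjusted p = 0.154).

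Endothelial markers, like those of macrophages, were higher in old mice. All 4 (Pecam1, Cdh5, Kdr and Egfl7) were higher at 28 than at 3 months, and the score was 4.37 at 3 and 4.55 at 28 months, with a difference of 0.22 between 15 and 24 months. With it in the model 4 genes were called as higher (Ctsk, Ctsh, Npc1 and Scarb2) and 12 as lower between 3 and 28 months. Both directions together these are 47.1% of the lysosomal genes, against 48.0% of all genes in that fit (21.3% higher, 26.7% lower). Grn was at 0.05 (adjusted p = 0.405) and Gaa at 0.00 (adjusted p = 0.945). Between 15 and 24 months, where edgeR called none with this score, Ctsk was at 0.17 (adjusted p = 0.301), Ctsh at 0.13 (adjusted p = 0.121) and Npc1 at 0.14 (adjusted p = 0.153).

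Most goblet cell markers and all tuft cell markers were lower in old mice. Of 5 goblet cell markers 4 were lower and 1 higher at 28 months, with a score of 11.61 at 3 and 11.29 at 28 months, and all 4 tuft cell markers (Dclk1, Trpm5, Pou2f3 and Avil) were lower, with a score of 3.292 at 3 and 2.795 at 28 months. With either score in the model 6 genes were called as lower between 3 and 28 months in place of 8, and with either Ctsa, Naglu and Scarb2 were no longer called. Ctsa was at -0.07 (adjusted p = 0.215) with the goblet cell score and at -0.05 (adjusted p = 0.516) with the tuft cell score. Those called as higher were 10 with the goblet cell score and 9 with the tuft cell score, Ctsb and Man2b1 among them in both. With the goblet cell score 47.1% of the 34 were called, against 36.6% of all genes (18.4% higher, 18.2% lower). With the tuft cell score it was 44.1%, against 33.8% of all genes (17.3% higher, 16.6% lower). Between 15 and 24 months 11 genes were called with the goblet cell score (32.4%, against 9.89% of all genes) and 10 with the tuft cell score (29.4%, against 16.9%), each of them as higher. Between 24 and 28 months, when the tuft cell score differed by -0.36 and the goblet cell score by -0.28, the fall of Hexa became -0.12 (adjusted p = 0.112) with the goblet cell score and -0.12 (adjusted p = 0.239) with the tuft cell score. Tfeb, which neither model called between 3 and 28 months, was then at 0.03 (adjusted p = 0.798) and 0.06 (adjusted p = 0.628). These scores follow age themselves, and what part the cells have in the changes of the 34 genes was not tested further.

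A wider list of 71 other lysosomal genes gives the surroundings of these changes. All 71 were tested, and between 3 and 28 months 21 rose and 16 fell, 29.6% and 22.5% of the list, against 23.5% and 25.9% of all genes tested. Of the 16 proton pump genes, which acidify the lysosome, 1 rose and 6 fell, with a median log2 fold change of -0.06. Both directions together these are 43.8%, beside 49.4% of all genes tested. By direction, 6 of the 16 fell and 1 rose, beside 25.9% of all genes lower and 23.5% higher. Of the 10 other membrane proteins 7 rose and 1 fell, with a median of 0.12, and of 21 other hydrolases and their cofactors 7 rose and 1 fell. The 6 genes that sort enzymes to the lysosome by way of mannose 6-phosphate and sortilin had 3 falls, M6pr, Nagpa and Sort1. Of 14 genes of nutrient sensing at the lysosome 5 rose and 4 fell, and the relatives of Tfeb went apart, Mitf higher at 0.24 ± 0.07 (SE, adjusted p = 0.00459) and Tfe3 lower at -0.11 ± 0.04 (SE, adjusted p = 0.00874).

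By size the rises of that list were led by Flcn, the folliculin that governs TFEB and TFE3 through the Rag GTPases, at 0.41 ± 0.08 (SE, adjusted p = 2.98e-05). Slc17a5, the exporter of sialic acid, which NEU1 releases, followed at 0.31 ± 0.05 (SE, adjusted p = 1.24e-07), and then Gm2a. The falls were led by Cst6, an inhibitor of cathepsins and legumain, at -0.83 ± 0.17 (SE, adjusted p = 5.01e-05). Atp6v0a2, a proton pump subunit, was at -0.21 ± 0.04 (SE, adjusted p = 8.9e-07) and the Rag GTPase gene Rraga at -0.20 ± 0.04 (SE, adjusted p = 1.65e-05). Between 15 and 24 months 6 of the 71 rose and 4 fell, and between 24 and 28 months 7 rose and 4 fell. These are 14.1% and 15.5% of the list, against 13.5% and 11.7% of all genes tested.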

How the data were processed

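RNA of colon tissue from 83 mice was sequenced as stranded polyA libraries. Per the labels and the study's methods, the authors trimmed reads with cutadapt 2.8, aligned them to GRCm38.p6 with HISAT2 2.1.0, used SAMtools 1.9, kept uniquely mapped reads and counted proper pairs per gene by strand with featureCounts of Subread 2.0.1. The deposited counts are whole numbers per gene and mouse without normalization. Ages and library batches were taken from the labels, and 0 columns of the table belonged to no sample.

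The counts went into edgeR 4.0.16 (R 4.3.3) with filterByExpr by age, TMM and 1 quasi-likelihood model of age and library batch over all mice. Benjamini-Hochberg adjustment ran over 18325 genes, with a threshold of 0.1 as in the study. Departure from a straight line was a joint test of the polynomial terms of age in months above the linear one. CPM used TMM-normalized library sizes, and TPM used merged exon lengths of the GENCODE M21 annotation, found for 37652 of 37764 genes. Within-batch values are differences of mean log2 CPM. Marker scores are the mean log2 CPM of a cell type's markers with a prior count of 2. The test was also run on simulated counts, and the outcome of that run is not given here. Differences between mice of 1 age exceeded counting noise in all 649 pairs, by a median ratio of 35.5.

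The members and all lists were chosen with earlier results of these data known. Values per age are given for the 6 largest rises and the 6 largest falls between 3 and 28 months, genes called in a step, Tfeb and Mcoln1, and of the wider lysosomal list the 3 largest rises and falls are named; Mitf and Tfe3 were named as relatives of Tfeb after their values were seen, as were M6pr, Nagpa and Sort1. Alternatives were DESeq2 1.42.0, its size factors, no filter, a replicate block, a minimum of 10 counts per mouse, leaving out the batch term, macrophage or enterocyte scores as covariates, a threshold of 0.05, fits of 2 ages only and another prior count. B cell, smooth muscle, fibroblast, goblet cell, tuft cell, endothelium and plasma cell covariates and leaving out 4 single mice were added after seeing the data. Leaving out every mouse in turn was not done. Python 3.11.15 with pandas 2.3.3 and matplotlib 3.10.9 made the summaries and plots. One item is not reported here. The bisulfite data of the study were not analysed here.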

Additional observations from a re-analysis of the deposited data

How the results depend on the processing

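No gene called in a comparison had the other sign under any alternative fit (0 of 500 values). Of 2900 values of genes not called, 200 had the other sign, and 1 of these was called there, Lgmn between 3 and 28 months with the macrophage score. Tfeb, not called, went from -0.073 to 0.027 with the goblet cell score and 0.0599 with the tuft cell score. The total called between 3 and 28 months stayed within 1.5 times under all alternatives, but with the macrophage score the 8 lower became 14 and the 6 higher 4, and with the goblet and tuft cell scores the higher became 10 and 9. Over all genes 27.1% were lower and 22.3% higher with the macrophage score. With the goblet and tuft cell scores 18.4% and 17.3% of all genes were higher. Departures became 3 with the plasma cell score, 4 with the tuft cell score and 10 with the goblet cell score, of which 2, 3 and 4 were among the 7. Between 3 and 9 months the 3 became 6 with the goblet cell score. Between 9 and 15 months, where 0 genes were called, DESeq2's size factors, at least 10 counts in every mouse, the fit of 2 ages and the goblet cell score gave 1 each, and the enterocyte score and DESeq2 gave 2 each. Between 15 and 24 months the 5 became 3 at a threshold of 0.05, 11 with the goblet cell, 10 with the tuft cell and 0 with the endothelium score, and 3 to 7 without single mice. The shares of all genes were 7.53%, 9.89%, 16.9% and 6.76%, and 13.8% to 15.4% without single mice. Between 24 and 28 months the 3 became 6 with the macrophage, 1 with the goblet cell, 1 with the plasma cell and 0 with the tuft cell score, and 3 to 5 without single mice. The shares of all genes were 14.9%, 2.62%, 3.61% and 0.42%, and 11.7% to 13.1% without single mice. Of 649 values of named genes and scores, 597 kept their side of the threshold or moved by less than the spread, 41 lost their call, 9 within-batch values moved by more and 2, those of Tfeb above, had the other sign. The cause was not tested.

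Replicate numbers do not mark pairs: over 161 pairs of mice with the same number at different ages the median correlation of their deviations was 0.0016, and 4 of 83 mice correlated best with their own number. With the replicate block 15 genes were called at 28 against 3 months, 7 from 15 to 24 and 3 from 24 to 28 months, and it cost the fall of Ctss between 3 and 9 months its call, at -0.11 (adjusted p = 0.118). Over all genes the fit with the block called 47.1%, 11.6% and 9.71% at 28 against 3, from 15 to 24 and from 24 to 28 months. The least abundant of the 34 genes, Ctsk, had at least 1.59 CPM in every mouse.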
